A study of Rattus norvegicus with 9 samples.

Results

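The genes described here are 43 rat genes that encode collagens, the other proteins and proteoglycans of the interstitial extracellular matrix, and the enzymes and chaperone that process collagen chains. They were listed by name, and each was read from the probe set with the highest mean over all arrays among the probe sets annotated to that gene alone. Of the 43 genes, 42 had such a probe set, out of 14213 genes measured in all. Thbs1, which encodes the matricellular protein thrombospondin 1, was not measured here. Schwann cells, the glia that ensheathe peripheral axons, had been cultured from rat sciatic nerve, transfected for a short term with RNAi oligonucleotides, and harvested for total RNA 48 hours later. The 3 groups were Control RNAi (a scrambled oligonucleotide), NF1 RNAi, and NF1 RNAi + U0126, a MEK inhibitor that the labels write UO126. Each group held 3 cultures that the design text calls independent biological replicates, with 1 Affymetrix array per culture, so every group value below rests on n = 3. Control RNAi cells given U0126 were not analysed here, so the inhibitor can be read only in cells that also carried NF1 RNAi.

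Collagen chains are synthesised in the endoplasmic reticulum, where prolyl and lysyl residues are hydroxylated and a chaperone holds the forming triple helix, and secreted fibrils are then crosslinked by lysyl oxidases. Fibrillar collagens build the fibrils of the endoneurium and epineurium of a nerve, network collagens build the basal lamina around each Schwann cell, and glycoproteins, proteoglycans and elastic microfibrils fill and organise the space between. NF1 encodes neurofibromin, a protein that turns Ras off, and MEK is a kinase downstream of Ras. Neurofibromas, the nerve sheath tumours of people who carry NF1 mutations, are rich in collagen.

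All levels below are log2(intensity + 1) of the deposited values and are called log2 intensity, and a difference of 1 on that scale is a 2-fold change. Values of a group are listed in the order replicate 1, replicate 2, replicate 3. The array medians lay between 6.579 and 6.611. Nf1 itself, the targeted gene, read 6.65, 6.59 and 6.15 on the control arrays, 5.39, 5.41 and 5.44 on the NF1 RNAi arrays and 5.44, 5.72 and 5.39 with U0126. All 6 arrays with NF1 RNAi lay below all 3 control arrays, and Nf1 was 2.07-fold lower under NF1 RNAi than in controls (log2 difference -1.05 ± 0.13 SE, adjusted p = 0.000695). Unless said otherwise, each adjusted p comes from a limma fit across all 14213 genes with Benjamini-Hochberg adjustment, and a gene passed where it was under 0.05.

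The arrays numbered 1 stood apart for the matrix genes. Replicate 1 was the highest of its group in all 3 groups for 19 of the 42 members (45.2%), against 1773 of all 14213 genes (12.5%). The median member was higher on replicate 1 than on the mean of the other replicates by 0.21 in the controls, 0.14 under NF1 RNAi and 0.38 with U0126, where the same medians over all genes were 0.01, -0.01 and -0.00. Because arrays of the same number deviated together, each count is also given from a fit with the replicate number as a block, which compares arrays within a number. Counts without Control RNAi replicate 1 and without all 3 arrays numbered 1 stand beside them.

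Lower levels outnumbered higher ones among the matrix genes after NF1 RNAi. Against Control RNAi, 14 of the 42 members passed, 12 lower and 2 higher, in a comparison where 26.3% of all genes passed, 13.3% lower and 13.0% higher. The median member changed by -0.37, and the median of all genes by 0.02. The arrays of both groups did not overlap for 25 members, where 41.2% of all genes did not overlap. With the replicate block 23 members passed, 20 lower and 3 higher, against 32.0% of all genes, 16.2% lower and 15.7% higher. Without Control RNAi replicate 1, 11 passed, 9 lower and 2 higher, against 25.4% of all genes, 13.2% lower and 12.2% higher. Without the 3 arrays numbered 1, 17 passed, 15 lower and 2 higher, against 26.9%, 14.0% lower and 13.0% higher. At least a 2-fold change was shown by 7 of the 14, where 3.69% of all genes passed at that size. Leaving out an NF1 RNAi array left 9, 9 and 8 passing members for replicates 1, 2 and 3, and the share of all genes was not taken in those fits.

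The comparison of NF1 RNAi + U0126 with NF1 RNAi asks whether the MEK inhibitor moved the matrix genes in cells with NF1 RNAi. Here 8 of 42 passed, 6 lower and 2 higher, where 13.7% of all genes passed, 7.02% lower and 6.71% higher. The median member changed by -0.04, against 0.02 over all genes. The arrays of both groups did not overlap for 12 members, against 33.9% of all genes. The replicate block raised the count to 17, 12 lower and 5 higher, against 19.6% of all genes, 10.1% lower and 9.53% higher. Leaving out the 3 arrays numbered 1 gave 15, 12 lower and 3 higher, against 18.4%, 9.49% lower and 8.95% higher. When Control RNAi replicate 1 was left out it was 10, 8 lower and 2 higher, against 18.2%, 9.39% lower and 8.82% higher. At least a 2-fold change was shown by 4 of the 8, against 1.98% of all genes. The main count fell to 3 without NF1 RNAi replicate 1 or 2 and to 4 without NF1 RNAi replicate 3, and it fell to 3 without NF1 RNAi + U0126 replicate 2 or 3. It was 12 without NF1 RNAi + U0126 replicate 1. The share of all genes was not taken in the fits without an NF1 RNAi or NF1 RNAi + U0126 array.

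Cells with both treatments were lower than controls in most called members. In NF1 RNAi + U0126 against Control RNAi, 17 of 42 members passed, 15 lower and 2 higher, where 35.5% of all genes passed, 17.6% lower and 17.9% higher. The median member changed by -0.44, against 0.04 over all genes, and the arrays did not overlap for 20 members, against 47.2% of all genes. With the replicate block 26 passed, 24 lower and 2 higher, against 40.8%, 20.3% lower and 20.4% higher. Without the 3 arrays numbered 1, 23 passed, 21 lower and 2 higher, against 38.2%, 19.3% lower and 18.9% higher. Without Control RNAi replicate 1, 17 passed, 14 lower and 3 higher, against 35.8%, 18.0% lower and 17.8% higher. At least a 2-fold change was shown by 11 of the 17, against 6.15% of all genes. The 3 comparisons share arrays in pairs, so their values are set side by side and not counted against each other.

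**Figure D1:**
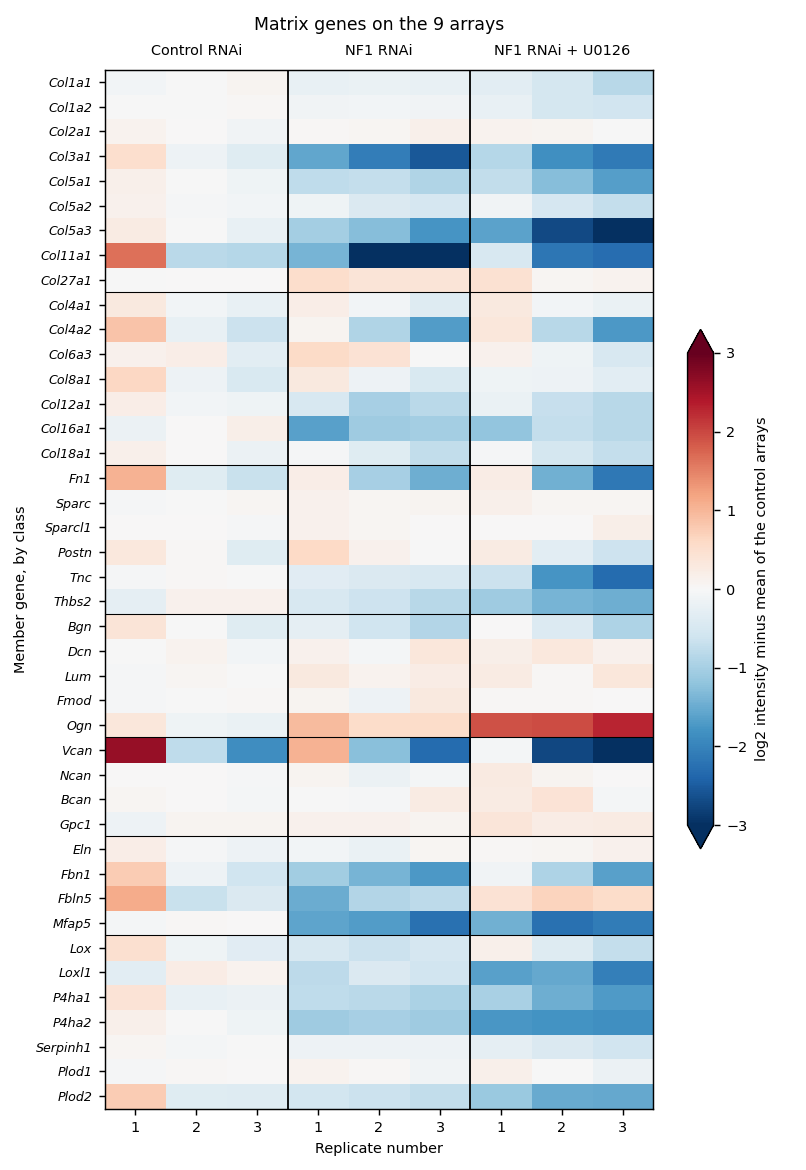
Each row is a member, grouped by class with lines between classes, each column is an array, and colour gives its log2 intensity minus the mean of the 3 control arrays, with values past 3 or -3 drawn in the end colours. Col3a1, Mfap5 and P4ha2 are below the control mean on all 6 arrays with NF1 RNAi, Ogn is above it on all 6, and Vcan, Fn1 and Col4a2 differ more between replicate numbers than between groups.

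**Figure D2:**
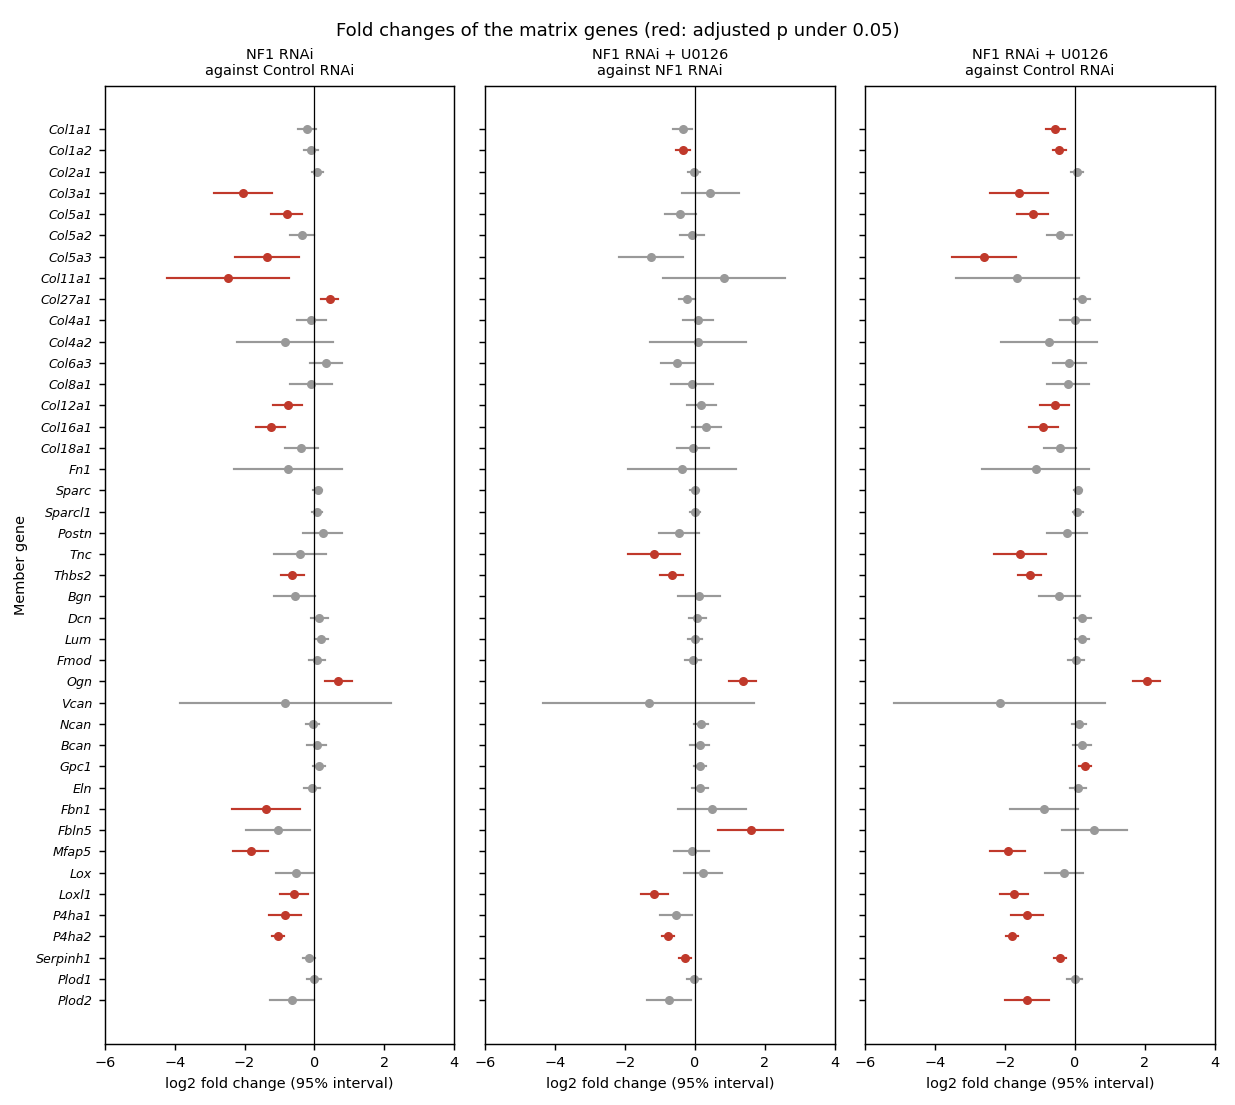
Points give each member's log2 fold change in the 3 comparisons and bars its 95% interval from the limma fit, in red where the adjusted p was under 0.05. In NF1 RNAi against Control RNAi 14 points are red, 12 of them left of 0; the intervals of Vcan, Col11a1, Fn1 and Col4a2 are the widest.

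Among the 9 fibrillar collagens, 5 passed in NF1 RNAi against Control RNAi, 4 lower and 1 higher. Adding U0126 to NF1 RNAi gave 1 lower, and NF1 RNAi + U0126 against Control RNAi gave 5 lower. Their median log2 changes in that order were -0.36, -0.23 and -0.56. In the same order 26.3%, 13.7% and 35.5% of all genes passed, and 13.3%, 7.02% and 17.6% passed as lower; these shares apply to the counts of every class below. With the replicate block the counts were 6, 4 and 7, against 32.0%, 19.6% and 40.8% of all genes. With so few genes in a class, no count is read as particular to it. Col3a1, which encodes the chain of the type III homotrimer found beside type I in compliant tissue, read 12.83, 12.19 and 11.98 in controls, 10.78, 10.25 and 9.80 under NF1 RNAi and 11.47, 10.50 and 10.22 with U0126. Every array with NF1 RNAi lay below every control array, and replicate 1 was the highest in each group. Col3a1 fell 4.16-fold under NF1 RNAi (-2.06 ± 0.36 SE, adjusted p = 0.00346; 0.0084 without Control RNAi replicate 1). The differences within numbers 1, 2 and 3 were -2.05, -1.94 and -2.19. With U0126 it was 0.45 ± 0.36 above NF1 RNAi alone (adjusted p = 0.484), a difference of 0.69, 0.25 and 0.42 within the numbers that passed with the replicate block (adjusted p = 0.0154). It was still 3.04-fold below the controls (-1.60 ± 0.36, adjusted p = 0.00801).

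Of the 3 type V chains, which join type I in fibrils and set their diameter, Col5a1 and Col5a3 passed as lower in both comparisons with controls. Col5a1, the chain that starts fibril assembly, read 12.22, 12.05 and 11.95 in controls, 11.30, 11.36 and 11.16 under NF1 RNAi and 11.34, 10.80 and 10.43 with U0126. No array with NF1 RNAi reached the lowest control. Col5a1 fell 1.74-fold under NF1 RNAi (-0.80 ± 0.19, adjusted p = 0.0153; 0.0555 without NF1 RNAi replicate 3). It was 2.32-fold below controls with U0126 (-1.21 ± 0.19, adjusted p = 0.00129). The step between them, -0.41 ± 0.19, did not pass (adjusted p = 0.212), and it passed without NF1 RNAi + U0126 replicate 1 (-0.65, adjusted p = 0.0155). Col5a3, a type V chain made by Schwann cells, read 11.66, 11.39 and 11.19 in controls, 10.40, 10.13 and 9.65 under NF1 RNAi and 9.81, 8.70 and 7.94 with U0126. The groups stepped down in that order within every replicate number, and only NF1 RNAi and NF1 RNAi + U0126 overlapped, through replicate 1 of the latter. Col5a3 fell 2.56-fold under NF1 RNAi (-1.35 ± 0.41, adjusted p = 0.0369). That call was lost without any control array, without any NF1 RNAi array and without NF1 RNAi + U0126 replicate 2, with adjusted p from 0.0536 to 0.124. The further step with U0126 was -1.25 ± 0.41 (adjusted p = 0.0778, and 0.00989 with the replicate block). Without NF1 RNAi + U0126 replicate 1 that step was -1.74 (adjusted p = 0.00648). Col5a3 was 6.06-fold below controls with U0126 (-2.60 ± 0.41, adjusted p = 0.00111). Col5a2, the remaining type V chain, passed in no comparison without the block. It lay between 13.59 and 13.81 in controls, 13.17 and 13.55 under NF1 RNAi and 12.98 and 13.57 with U0126. With the block it passed as lower in both comparisons with controls (-0.36, adjusted p = 0.00969, and -0.44, adjusted p = 0.00283). The other Col5a2 probe set, in a fit over all probe sets without the block, passed as lower in both (-0.72 ± 0.22, adjusted p = 0.0466, and -0.76 ± 0.22, adjusted p = 0.0287), so these calls depended on the probe set.

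The type I chains, which make the bulk of most collagen fibrils, both passed as lower with U0126 against controls. Col1a1 read 13.90, 13.96 and 14.07 in controls, 13.76, 13.78 and 13.76 under NF1 RNAi and 13.66, 13.44 and 13.15 with U0126. The 3 groups did not overlap. The difference under NF1 RNAi was -0.21 ± 0.11 (adjusted p = 0.223). With U0126 Col1a1 fell 1.48-fold against controls (-0.56 ± 0.11, adjusted p = 0.0046), and the step from NF1 RNAi of -0.35 ± 0.11 did not pass (adjusted p = 0.0778; 0.0178 without NF1 RNAi + U0126 replicate 1). The other Col1a1 probe set gave a larger change under NF1 RNAi, -0.65 ± 0.15, which passed in a fit over all probe sets (adjusted p = 0.0156), so the call of Col1a1 in that comparison depended on the probe set. With U0126 against controls that probe set gave -0.99 ± 0.15 (adjusted p = 0.0012). Col1a2 read 13.95, 13.96 and 14.01 in controls, 13.87, 13.89 and 13.87 under NF1 RNAi and 13.74, 13.45 and 13.40 with U0126. It was the fibrillar collagen that fell on adding U0126 to NF1 RNAi, 1.27-fold (-0.34 ± 0.09, adjusted p = 0.0286). That call was lost without any NF1 RNAi array and without NF1 RNAi + U0126 replicate 2 or 3, with adjusted p from 0.0712 to 0.102. Against controls Col1a2 fell 1.36-fold with U0126 (-0.45 ± 0.09, adjusted p = 0.00339), and the difference under NF1 RNAi alone was -0.10 ± 0.09 (adjusted p = 0.449). The other Col1a2 probe set gave larger changes in the fit over all probe sets, -0.58 ± 0.12 on adding U0126 (adjusted p = 0.0134) and -0.84 ± 0.12 against controls (adjusted p = 0.000654).

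Col11a1, a minor chain that controls fibril diameter, read 11.81, 9.35 and 9.29 in controls, 8.76, 7.15 and 7.10 under NF1 RNAi and 9.67, 7.98 and 7.86 with U0126. Replicate 1 stood 1.64 to 2.49 above the mean of the other replicates in each group, and within every number the order was control, then U0126, then NF1 RNAi. The fall under NF1 RNAi was 5.57-fold (-2.48 ± 0.77, adjusted p = 0.0435). It was -1.65 without Control RNAi replicate 1 (adjusted p = 0.0899), and the call was also lost without NF1 RNAi replicate 2 or 3 or NF1 RNAi + U0126 replicate 2 or 3, with adjusted p from 0.0568 to 0.134. Neither other comparison passed without the block: the difference on adding U0126 was 0.83 ± 0.77 (adjusted p = 0.556) and that from controls -1.65 ± 0.77 (adjusted p = 0.133). With the replicate block all 3 passed, at adjusted p = 9.22e-05, 0.0139 and 0.00025. Col27a1, a fibrillar collagen best known from cartilage, went the other way. It read 9.54, 9.57 and 9.58 in controls, 10.09, 9.95 and 9.96 under NF1 RNAi and 10.03, 9.62 and 9.67 with U0126. Both treated groups lay above all controls. Col27a1 rose 1.35-fold under NF1 RNAi (0.44 ± 0.10, adjusted p = 0.0139; 0.0526 without NF1 RNAi replicate 1). The differences with U0126, -0.23 ± 0.10 from NF1 RNAi and 0.21 ± 0.10 from controls, did not pass (adjusted p = 0.195 and 0.155). The former passed without NF1 RNAi + U0126 replicate 1 (-0.36, adjusted p = 0.0136). Col2a1, the chain of cartilage fibrils, stayed between 4.63 and 4.90 on all arrays.

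**Figure D3:**
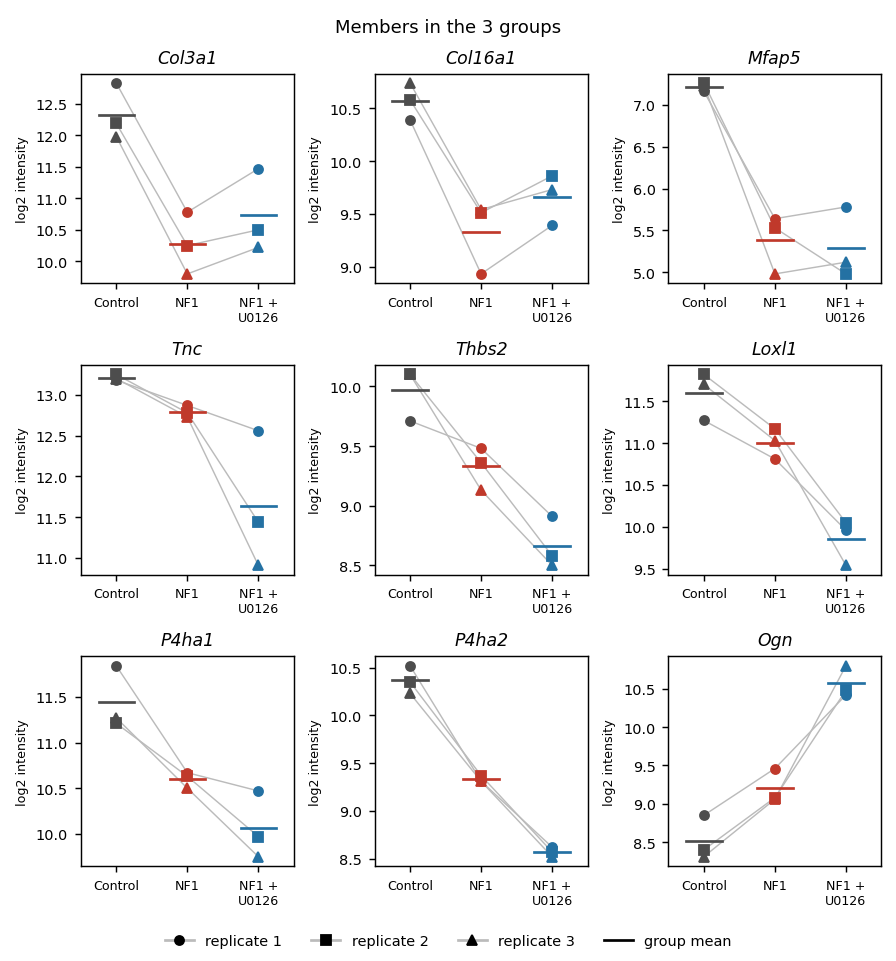
Log2 intensity of 9 members in the 3 groups, 1 point per array, with the replicate number as the marker shape, grey lines joining arrays of the same number and a bar at each group mean; the vertical axes differ and do not start at 0. Col3a1, Col16a1 and Mfap5 are low under NF1 RNAi with or without U0126, Tnc, Thbs2, Loxl1, P4ha1 and P4ha2 have lower group means under NF1 RNAi and lower ones again with U0126, and Ogn has higher ones.

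Of the 7 network and fibril-associated collagens, 2 passed as lower under NF1 RNAi, 0 passed on adding U0126 (1 at an unadjusted p under 0.05 in the limma fit, and 2 with the replicate block), and 2 passed as lower with U0126 against controls. Both were fibril-associated collagens, which sit on the surface of fibrils. Col16a1 read 10.39, 10.58 and 10.74 in controls, 8.93, 9.51 and 9.54 under NF1 RNAi and 9.39, 9.86 and 9.73 with U0126. Here replicate 1 was the lowest of each group, and no treated array reached the controls. Col16a1 fell 2.37-fold under NF1 RNAi (-1.24 ± 0.18, adjusted p = 0.00136) and was 1.88-fold below controls with U0126 (-0.91 ± 0.18, adjusted p = 0.00423). The difference of 0.33 ± 0.18 between the treated groups did not pass (adjusted p = 0.289), and with the block it passed as higher with U0126 (adjusted p = 0.037). Col12a1 read 13.18, 12.91 and 12.86 in controls, 12.50, 11.98 and 12.17 under NF1 RNAi and 12.78, 12.29 and 12.14 with U0126. All treated arrays lay below all controls. Col12a1 fell 1.71-fold under NF1 RNAi (-0.77 ± 0.18, adjusted p = 0.014; 0.0555 without NF1 RNAi replicate 2). It was 1.49-fold lower with U0126 (-0.58 ± 0.18, adjusted p = 0.0361), a call that was lost without any control array, without NF1 RNAi replicate 3 and without NF1 RNAi + U0126 replicate 2 or 3 (adjusted p from 0.0529 to 0.118). The mean of its 3 probe sets gave -0.66 (adjusted p = 0.056).

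The basement membrane chains Col4a1 and Col4a2 did not pass without the block. Col4a1 lay between 12.73 and 13.41 on all arrays and differed by -0.09 ± 0.19 under NF1 RNAi (adjusted p = 0.798). Col4a2 read 12.84, 11.77 and 11.34 in controls, 12.06, 11.09 and 10.30 under NF1 RNAi and 12.32, 11.14 and 10.25 with U0126. The groups overlapped, with replicate 1 high by 1.28 to 1.63 in each, while within numbers 1, 2 and 3 Col4a2 differed by -0.78, -0.68 and -1.04 under NF1 RNAi. The block fit passed it as lower under NF1 RNAi (-0.83, adjusted p = 0.00119) and with U0126 (-0.75, adjusted p = 0.00122), where the fit without the block gave adjusted p = 0.371 and 0.374. Col18a1, a basement membrane collagen that gives rise to endostatin, differed by -0.38 ± 0.21 and -0.43 ± 0.21 from controls and on this probe set passed only with the block (adjusted p = 0.0134 and 0.00575). Its other probe set gave -0.87 ± 0.29 and -1.36 ± 0.29 without the block, and the latter passed in the fit over all probe sets (adjusted p = 0.0619 and 0.00657). Col6a3, a chain of the beaded microfibrils of type VI collagen, lay at or below 6.04 on every array. With the block it passed as higher under NF1 RNAi (0.33, adjusted p = 0.0108) and lower on adding U0126 (-0.50, adjusted p = 0.00351). The other Col6a3 probe set, with a mean level of 5.41, gave 0.06 ± 0.12 and -0.14 ± 0.12 in the fit over all probe sets, without the block. Neither passed (adjusted p = 0.768 and 0.548), and no block fit of that probe set is given here. Col8a1, a short network collagen, lay between 5.61 and 6.69 and passed in no fit with or without the block.

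All calls among the enzymes and chaperone that process collagen were lower. Of 7, 3 passed as lower under NF1 RNAi, 3 as lower on adding U0126 and 5 as lower with U0126 against controls, with median log2 changes of -0.59, -0.54 and -1.38. Of all genes 13.3%, 7.02% and 17.6% passed as lower in these comparisons. With the block the counts were 5, 5 and 5, all lower, against 16.2%, 10.1% and 20.3% of all genes. P4ha2, a catalytic subunit of prolyl 4-hydroxylase, which makes the hydroxyproline that stabilises the triple helix, had the smallest adjusted p of all 42 members in each comparison. It read 10.52, 10.35 and 10.23 in controls, 9.31, 9.37 and 9.31 under NF1 RNAi and 8.62, 8.57 and 8.52 with U0126. The 3 groups were far apart, and no group spanned more than 0.29. P4ha2 fell 2.05-fold under NF1 RNAi (-1.03 ± 0.08, adjusted p = 5.65e-05), by a further 1.70-fold on adding U0126 (-0.76 ± 0.08, adjusted p = 0.000435), and was 3.48-fold below controls in the doubly treated cells (-1.80 ± 0.08, adjusted p = 1.8e-06). All 3 calls held without each array in turn, but the first 2 depended on the probe set. The other P4ha2 probe set, with a mean level of 6.56, gave -0.10 ± 0.07, -0.20 ± 0.07 and -0.29 ± 0.07 in that order, and only the last passed in the fit over all probe sets (adjusted p = 0.409, 0.128 and 0.0125). P4ha1, the other measured catalytic subunit among the members, read 11.84, 11.21 and 11.27 in controls, 10.67, 10.63 and 10.50 under NF1 RNAi and 10.47, 9.97 and 9.75 with U0126. The groups again did not overlap. P4ha1 fell 1.79-fold under NF1 RNAi (-0.84 ± 0.20, adjusted p = 0.0152; 0.0543 without NF1 RNAi replicate 3) and was 2.60-fold below controls with U0126 (-1.38 ± 0.20, adjusted p = 0.000821). The step on adding U0126, -0.54 ± 0.20, had adjusted p = 0.122, and it passed with the block (0.0184), without Control RNAi replicate 1 (0.0483) and without NF1 RNAi + U0126 replicate 1 (-0.74, adjusted p = 0.036).

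Plod2, the lysyl hydroxylase of collagen telopeptides, whose product gives stable crosslinks, read 10.57, 9.44 and 9.41 in controls, 9.26, 9.17 and 9.08 under NF1 RNAi and 8.70, 8.30 and 8.28 with U0126. The groups did not overlap, but replicate 1 stood 1.14 above the other controls. Plod2 was 2.60-fold below controls with U0126 (-1.38 ± 0.28, adjusted p = 0.00428). The differences of -0.63 ± 0.28 under NF1 RNAi and -0.75 ± 0.28 on adding U0126 did not pass (adjusted p = 0.133 and 0.116), and both passed with the block (0.0382 and 0.0311). Without Control RNAi replicate 1 the former was -0.25 (adjusted p = 0.187) and the latter -0.75 (adjusted p = 0.00258). Plod1, the lysyl hydroxylase of helical residues, lay between 11.36 and 11.68 on all arrays, and its difference under NF1 RNAi was 0.00 with a 95% interval from -0.20 to 0.20. Loxl1, a lysyl oxidase that crosslinks elastin and collagen, read 11.27, 11.82 and 11.70 in controls, 10.81, 11.17 and 11.03 under NF1 RNAi and 9.96, 10.05 and 9.54 with U0126. The 3 groups did not overlap. Loxl1 fell 1.51-fold under NF1 RNAi (-0.59 ± 0.18, adjusted p = 0.0362), a call that was lost without Control RNAi replicate 2 or 3 or any NF1 RNAi array (adjusted p from 0.0519 to 0.119). It fell 2.23-fold on adding U0126 (-1.16 ± 0.18, adjusted p = 0.00322) and was 3.36-fold below controls (-1.75 ± 0.18, adjusted p = 0.000103). Lox, the founding lysyl oxidase, lay between 4.12 and 5.31 on all arrays and passed as lower only under NF1 RNAi with the block (-0.54, adjusted p = 0.0294). Serpinh1, which encodes HSP47, the collagen-specific chaperone, read 13.29, 13.17 and 13.21 in controls, 13.08, 13.07 and 13.07 under NF1 RNAi and 12.95, 12.80 and 12.65 with U0126. The groups were close but separate. Serpinh1 fell 1.35-fold with U0126 against controls (-0.43 ± 0.08, adjusted p = 0.00258). The step on adding U0126, -0.27 ± 0.08, was at the threshold (adjusted p just under 0.05), and leaving out Control RNAi replicate 2 or 3, any NF1 RNAi array, or NF1 RNAi + U0126 replicate 2 or 3 ended that call (adjusted p from 0.0695 to 0.132), as did median centring of the arrays (0.0505). The difference under NF1 RNAi was -0.16 ± 0.08 (adjusted p = 0.188).

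Because the hydroxylase genes P4ha1, P4ha2 and Plod2 were all lower with U0126 than in controls, the RefSeq promoter windows of the members were searched for short motifs, and the stretch before the start site of P4ha2 is shown as the member with the smallest adjusted p. Mfap5, the member with the next smallest adjusted p under NF1 RNAi, is shown beside it. Each is the 250 bases before the start site on the plus strand of build GRCr8, P4ha2 at chr10:38743644-38743893 and Mfap5 at chr4:157399669-157399918. Capitals mark ACGTG, the core of the hypoxia response element, in P4ha2 and the CCAAT box on the minus strand, written ATTGG, in Mfap5.
P4ha2: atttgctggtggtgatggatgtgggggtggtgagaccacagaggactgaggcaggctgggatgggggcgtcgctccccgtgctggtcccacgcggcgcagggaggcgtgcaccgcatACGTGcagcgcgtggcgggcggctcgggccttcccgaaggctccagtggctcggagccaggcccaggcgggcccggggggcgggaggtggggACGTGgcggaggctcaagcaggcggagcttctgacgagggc
Mfap5: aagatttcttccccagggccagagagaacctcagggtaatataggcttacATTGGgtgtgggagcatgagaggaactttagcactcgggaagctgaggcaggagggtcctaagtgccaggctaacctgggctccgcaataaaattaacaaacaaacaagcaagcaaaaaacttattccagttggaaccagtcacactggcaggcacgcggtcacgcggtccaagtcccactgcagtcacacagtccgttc
The windows searched ran from 250 bases before to 50 after the start site, on both strands, and 31 of the 42 measured members had an entry, as did 11736 of the tested genes. ACGTG was in 5 member windows (16.1%), those of P4ha1, P4ha2, Plod2, Fmod and Ncan, and in 24.0% of all windows. The count is small and was not tested, so no difference between the members and all genes is read from it. CCAAT was in 10 member windows (32.3%), Mfap5 among them, and in 37.3% of all. TATAAA was in 5 (16.1%, against 8.45% of all). GGAATG, the TEAD motif, was in 4 (12.9%, against 11.7%). CCGGAAG, an ETS motif, was in 1, that of Serpinh1 (3.23%, against 15.1%). TGANTCA, the AP-1 motif, was in 0 of the 31 member windows and in 5.44% of all windows. None of these motifs contains another. A match is a run of letters and not a measured binding site.

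Of the 6 measured matrix glycoproteins, 1 passed as lower under NF1 RNAi, 2 as lower on adding U0126 and 2 as lower with U0126 against controls. Thbs2, the matricellular protein thrombospondin 2, passed in all 3. It read 9.71, 10.10 and 10.10 in controls, 9.48, 9.36 and 9.13 under NF1 RNAi and 8.91, 8.58 and 8.5 with U0126. The groups stepped down without overlap. Thbs2 fell 1.56-fold under NF1 RNAi (-0.64 ± 0.15, adjusted p = 0.0118), fell 1.58-fold on adding U0126 (-0.66 ± 0.15, adjusted p = 0.018) and was 2.47-fold below controls with both (-1.30 ± 0.15, adjusted p = 0.000184). The call on adding U0126 was lost without NF1 RNAi replicate 1 or 2 or NF1 RNAi + U0126 replicate 2 or 3 (adjusted p from 0.0612 to 0.0699). Tnc, which encodes tenascin C, a glycoprotein of developing and injured nerve, read 13.18, 13.25 and 13.20 in controls, 12.87, 12.78 and 12.73 under NF1 RNAi and 12.56, 11.44 and 10.91 with U0126. The controls and the NF1 RNAi arrays were tight, and the U0126 arrays spread over 1.65. Tnc fell 2.23-fold on adding U0126 (-1.16 ± 0.33, adjusted p = 0.0492). That call was lost without Control RNAi replicate 2 or 3, without any NF1 RNAi array and without NF1 RNAi + U0126 replicate 2 or 3 (adjusted p from 0.0701 to 0.15), and under quantile normalization (0.0605). Tnc was 2.98-fold below controls with U0126 (-1.58 ± 0.33, adjusted p = 0.00533). Its difference under NF1 RNAi of -0.42 ± 0.33 (adjusted p = 0.414) passed without NF1 RNAi + U0126 replicate 1 (adjusted p = 0.0396). The SE there is shared by all groups, whose SDs were 0.03 in controls, 0.07 under NF1 RNAi and 0.84 with U0126. In a limma fit of only the 2 groups compared, the difference under NF1 RNAi passed (adjusted p = 0.00481). The step on adding U0126 did not pass in such a fit (adjusted p = 0.0811).

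Fibronectin, periostin and the SPARC proteins did not pass. Fn1, the adhesive glycoprotein on which fibrils assemble, read 12.38, 10.99 and 10.67 in controls, 11.55, 10.34 and 9.88 under NF1 RNAi and 11.57, 9.90 and 9.20 with U0126. Replicate 1 stood 1.45 to 2.02 above the others in each group, so the groups overlapped. The difference under NF1 RNAi was -0.76 ± 0.68 (adjusted p = 0.477), or -0.83, -0.65 and -0.79 within the numbers, and it passed with the block (adjusted p = 0.00408). With U0126 against controls it was -1.13 (adjusted p = 0.233, and 0.000436 with the block). Postn, a matricellular protein that binds collagen, lay between 12.97 and 14.18 on all arrays. With the block it passed as lower on adding U0126 (-0.46, adjusted p = 0.00625) and against controls (-0.23, adjusted p = 0.0461), and its difference under NF1 RNAi was 0.23 (block adjusted p = 0.0557). Sparc, a collagen-binding matricellular protein, lay between 14.10 and 14.30 on all arrays, and its interval under NF1 RNAi ran from -0.04 to 0.22. Its relative Sparcl1 lay between 3.96 and 4.18.

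Among the 5 small leucine-rich proteoglycans, which bind collagen fibrils and space them, Ogn rose in every comparison. Ogn, which encodes osteoglycin, read 8.85, 8.40 and 8.31 in controls, 9.46, 9.08 and 9.06 under NF1 RNAi and 10.42, 10.48 and 10.80 with U0126. The 3 groups did not overlap. Ogn rose 1.60-fold under NF1 RNAi (0.68 ± 0.17, adjusted p = 0.0171), a call that was lost without Control RNAi replicate 2 or 3 or NF1 RNAi replicate 1 (adjusted p from 0.0561 to 0.0605). It rose 2.58-fold on adding U0126 (1.37 ± 0.17, adjusted p = 0.00111) and was 4.13-fold above controls with both (2.05 ± 0.17, adjusted p = 3.5e-05). Bgn, which encodes biglycan, lay between 8.77 and 9.53 in controls, 8.27 and 8.88 under NF1 RNAi and 8.22 and 9.14 with U0126. Its differences from controls of -0.57 ± 0.26 and -0.45 ± 0.26 did not pass (adjusted p = 0.15 and 0.223), and both passed with the block (0.000861 and 0.0017). Dcn, Lum and Fmod, for decorin, lumican and fibromodulin, read at most 4.30, 3.41 and 4.63 and passed in no fit with or without the block.

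Of the 4 other proteoglycans, Gpc1 passed as higher in 1 comparison. Gpc1, a heparan sulfate proteoglycan anchored to the cell surface, read 12.73, 12.97 and 12.96 in controls, 13.02, 13.02 and 12.97 under NF1 RNAi and 13.24, 13.11 and 13.13 with U0126. The group means stepped up by little, and the highest control and the lowest NF1 RNAi array were equal after rounding. Gpc1 rose 1.21-fold with U0126 against controls (0.28 ± 0.08, adjusted p = 0.0191; 0.0633 without NF1 RNAi + U0126 replicate 1), and the smaller steps did not pass (adjusted p = 0.297 and 0.222). Vcan, which encodes versican, a large chondroitin sulfate proteoglycan that binds hyaluronan, had the widest spread of all members. It read 11.89, 8.51 and 7.42 in controls, 10.32, 8.03 and 6.97 under NF1 RNAi and 9.21, 6.54 and 5.60 with U0126. Replicate 1 stood 2.82 to 3.92 above the others in each group, and within every number the order was control, then NF1 RNAi, then U0126. The differences of -0.84 ± 1.33 under NF1 RNAi, -1.32 ± 1.33 on adding U0126 and -2.16 ± 1.33 against controls did not pass (adjusted p = 0.71, 0.592 and 0.244). All 3 passed with the block on this probe set, at adjusted p = 0.0179, 0.00471 and 0.000179. Without Control RNAi replicate 1 the difference under NF1 RNAi was 0.47, of the opposite sign. Other Vcan probe sets gave smaller falls on adding U0126 in the fit over all probe sets, without the block. Those with mean levels of 8.08 and 8.04 gave -0.26 and -0.4, and those at 3.99 and 4.99 gave -0.14 and -0.44. The size of that step thus depended on the probe set, and no block fit of the others is given here. Ncan and Bcan, the proteoglycans neurocan and brevican of the central nervous system, lay between 4.94 and 6.0 and passed in no fit with or without the block.

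**Figure D4:**
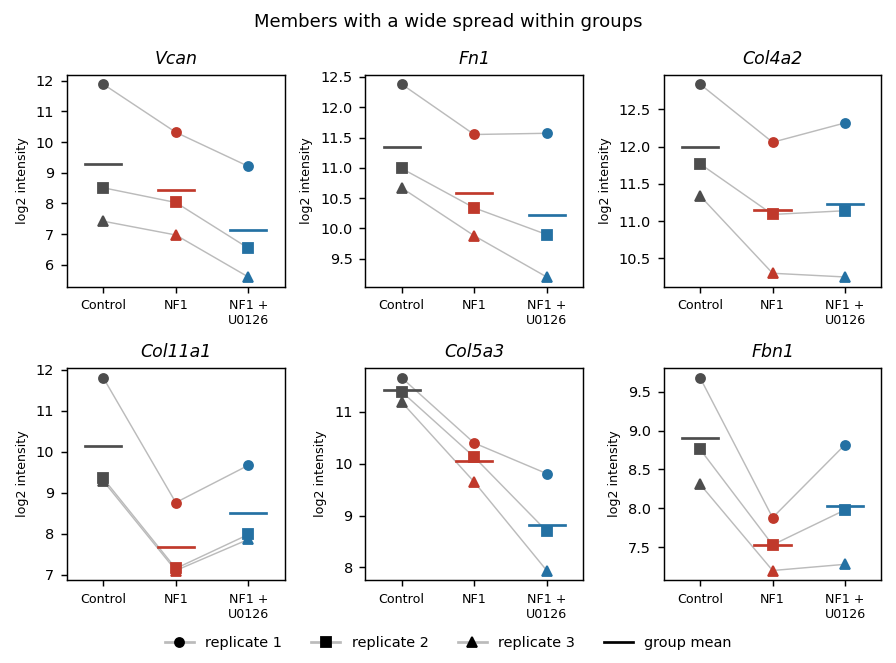
Log2 intensity of 6 members whose replicates spread widely within groups, 1 point per array, drawn as in the plot of 9 members above with the replicate number as the marker shape and axes that differ and do not start at 0. Replicate 1 is the highest array of every group, but the lines joining arrays of the same number are not parallel in every plot. From control to NF1 RNAi, Vcan went from 11.89 to 10.32 in replicate 1 and from 8.51 to 8.03 in replicate 2. On adding U0126, Col5a3 went from 10.40 to 9.81 in replicate 1 and from 9.65 to 7.94 in replicate 3. Vcan spans 11.89 to 7.42 among the controls alone.

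Of the 4 elastic fibre genes, 2 passed as lower under NF1 RNAi, 1 as higher on adding U0126 and 1 as lower with U0126 against controls. Mfap5, a small glycoprotein of elastin-associated microfibrils, read 7.16, 7.26 and 7.23 in controls, 5.64, 5.53 and 4.98 under NF1 RNAi and 5.78, 4.98 and 5.12 with U0126. The controls were tight and well apart from both treated groups, which overlapped each other. Mfap5 fell 3.56-fold under NF1 RNAi (-1.83 ± 0.22, adjusted p = 0.00052) and was 3.79-fold below controls with U0126 (-1.92 ± 0.22, adjusted p = 0.00021). Adding U0126 made a difference of -0.09 ± 0.22, with a 95% interval from -0.59 to 0.41. All 6 treated arrays read below 6, where no detection call was at hand to show that the probe set stood above background, so both the size of the falls and the small step on adding U0126 rest on low readings. Fbn1, which encodes fibrillin 1, the backbone of microfibrils, read 9.68, 8.76 and 8.31 in controls, 7.88, 7.53 and 7.20 under NF1 RNAi and 8.82, 7.98 and 7.28 with U0126. NF1 RNAi arrays lay below all controls, and the U0126 arrays reached into both groups. Fbn1 fell 2.61-fold under NF1 RNAi (-1.38 ± 0.43, adjusted p = 0.041). That call was lost without Control RNAi replicate 1 (-1.0, adjusted p = 0.101) or 2, any NF1 RNAi array or NF1 RNAi + U0126 replicate 2 (adjusted p from 0.0593 to 0.13 over these). The difference from controls with U0126, -0.89 ± 0.43 (adjusted p = 0.139), passed with the block (0.00266) and without NF1 RNAi + U0126 replicate 1 (-1.28, adjusted p = 0.0389).

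Fbln5, which encodes fibulin 5, a protein that loads elastin onto microfibrils, was the member that rose on adding U0126 beside Ogn. It read 9.77, 7.98 and 8.21 in controls, 7.17, 7.78 and 7.86 under NF1 RNAi and 9.09, 9.32 and 9.20 with U0126. The U0126 arrays lay above all NF1 RNAi arrays, and among the controls replicate 1 was 1.67 above the others. Fbln5 rose 3.02-fold on adding U0126 (1.60 ± 0.41, adjusted p = 0.0324), a call that was lost without any NF1 RNAi or NF1 RNAi + U0126 array (adjusted p from 0.0659 to 0.102) and that had adjusted p = 0.00052 without Control RNAi replicate 1. The difference under NF1 RNAi was -1.04 ± 0.41 (adjusted p = 0.0963). It came to -0.49 without Control RNAi replicate 1 and passed without Control RNAi replicate 2 (-1.38, adjusted p = 0.0466). Against controls the difference with U0126 was 0.55 ± 0.41 (adjusted p = 0.331), which became 1.11 and passed when Control RNAi replicate 1 was left out (adjusted p = 0.00233). Eln, tropoelastin itself, lay between 5.68 and 6.08 on all arrays and passed in no fit with or without the block.

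Other probe sets of the same genes gave the same directions for the calls they bear on. Of the 42 members, 19 had more than 1 probe set, with 27 others between them. Of the 10 other probe sets of members called under NF1 RNAi, all 10 had the same sign and 7 passed. On adding U0126 it was 6 of 6, with 4 passing, and against controls with U0126 10 of 10, with 8 passing. Those that did not pass belonged to Col11a1, Col12a1 and P4ha2 under NF1 RNAi, to P4ha2 and Serpinh1 on adding U0126, and to Col12a1 with U0126 against controls.

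A longer list of 103 other matrix genes, of which 83 were measured, gives the surroundings of the members. Under NF1 RNAi 20 of the 83 passed, 13 lower and 7 higher, a share of 24.1% where 26.3% of all genes passed, and the median change was -0.03. On adding U0126 2 passed, 1 each way, against 13.7% of all genes, and against controls with U0126 26 passed, 18 lower and 8 higher, against 35.5%. With the block the counts were 38, 9 and 38, or 45.8%, 10.8% and 45.8%, against 32.0%, 19.6% and 40.8% of all genes. Among those that passed, the largest falls under NF1 RNAi were those of P4ha3, Ltbp4, Mfap2, Plod3 and Thbs4. P4ha3, the third prolyl 4-hydroxylase catalytic subunit, fell from a mean of 9.96 to 7.29 (-2.67 ± 0.40, adjusted p = 0.00147). Plod3, the lysyl hydroxylase that also adds sugars to collagen, fell from 11.38 to 9.88 (-1.50 ± 0.08, adjusted p = 1.8e-05). Mfap2, a microfibril glycoprotein related to Mfap5, fell from 9.13 to 7.60 (-1.53 ± 0.10, adjusted p = 3.16e-05), and Ltbp4, which binds latent TGF-beta to microfibrils, from 8.49 to 6.48 (-2.00 ± 0.15, adjusted p = 5.9e-05). Thbs4, a further thrombospondin, fell from 7.21 to 5.95 (-1.26 ± 0.23, adjusted p = 0.00375). The largest rises that passed were those of Smoc2, Col9a1, Col7a1, Col20a1 and Ltbp3, of 0.98, 0.95, 0.94, 0.83 and 0.34. That of Smoc2 did not pass with the replicate block (adjusted p = 0.0506). Control RNAi replicate 1 was low for Smoc2 (5.39, against 6.38 and 6.63) and for Col7a1 (10.04, against 11.16 and 11.29). Col9a1 rose from a mean of 5.04 to 5.99, low readings without a detection call. On adding U0126 Col4a5, a basement membrane chain, rose from 7.50 to 8.24 (0.74 ± 0.19, adjusted p = 0.0345) and Ltbp1, a further latent TGF-beta binding protein, fell from 11.27 to 9.60 (-1.66 ± 0.37, adjusted p = 0.0176).

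Of 12 listed Schwann cell markers 9 were measured, and 1 of them, Fabp7, lay below 6 on every array (3.84 to 4.05). Sox10, the transcription factor that defines the lineage, lay between 11.06 and 11.47, and S100b between 13.08 and 14.05. The markers also differed between groups. Under NF1 RNAi, on adding U0126 and with U0126 against controls, 26.3%, 13.7% and 35.5% of all genes passed. These shares apply to every marker count below. Under NF1 RNAi 2 of the 9 passed as higher, S100b and Cnp, and 0 as lower. On adding U0126 0 passed as higher and 4 as lower, S100b, Erbb3, Gfap and Foxd3. With U0126 against controls 1 passed as higher, S100b, and 3 as lower, Sox10, Gfap and Foxd3. Gfap, an intermediate filament protein of glia, had group means of 9.45 in controls, 8.79 under NF1 RNAi and 7.50 with U0126. The part of these differences in the matrix results was not tested. Their summed intensity was 28800 to 36800 in controls, 44700 to 44800 under NF1 RNAi and 40000 to 40800 with U0126. Fibroblasts of the nerve also make collagen, and 11 of the 42 members are themselves widely used as fibroblast markers, so 16 further fibroblast markers were read. Under NF1 RNAi 4 of those 11 members passed, 3 lower and 1 higher, with a median change of 0.08. Of the 31 measured members not on that list 10 passed, 9 lower and 1 higher, with a median of -0.54. The 2 medians are not read against each other, because low readings weigh on them unequally. The median of the 11 is the value of Fmod, which lay below 6 on every array, as did Dcn and Lum. Col6a3 lay at or below 6.04. Among the 31, Col2a1, Sparcl1, Ncan and Lox lay below 6 on every array. Of the 16 fibroblast markers outside the members 15 were measured, and 7 lay below 6 on every array. Pdgfra and Dpt, which mark nerve fibroblasts, were at 5.15 to 5.58 and 4.73 to 5.02. The summed intensity of the 15 was 1470 to 1600 in controls, 1580 to 1730 under NF1 RNAi and 1880 to 2000 with U0126. Of that sum Cthrc1, a collagen triple helix repeat protein, took means of 487, 602 and 954. The part of fibroblasts in the matrix results was not tested. Under NF1 RNAi 1 of the 15 passed: Pdgfrb fell from a mean of 7.75 to 6.38 (-1.37 ± 0.15, adjusted p = 0.000277), and it was higher again on adding U0126 (1.07 ± 0.15, adjusted p = 0.00188). On adding U0126, 2 of the 15 passed as higher and 1 as lower. With U0126 against controls 2 passed as higher and 0 as lower. Group means in controls, under NF1 RNAi and with U0126 were 8.92, 9.22 and 9.89 for Cthrc1 and 7.05, 7.69 and 6.25 for Mgp. Of 8 measured markers of mural cells, 2 passed as lower under NF1 RNAi, where 13.3% of all genes passed as lower. These were Tagln from 11.64 to 9.01 (-2.63 ± 0.40, adjusted p = 0.00168) and Acta2 from 8.44 to 7.92 (-0.52 ± 0.16, adjusted p = 0.0456). Of the 8, 4 lay below 6 on every array. The summed intensity of the 8 was 2820 to 5730 in controls, 910 to 1340 under NF1 RNAi and 880 to 1460 with U0126. Of that sum Tagln alone took means of 3380, 542 and 526. The part of mural cells in the matrix results was not tested. Of 10 macrophage markers 0 passed under NF1 RNAi in the limma fit (1 at an unadjusted p under 0.05) and 8 lay below 6 on every array. On adding U0126 1 of the 10 passed as higher, and with U0126 against controls 2 passed as higher. Cd68 had group means of 5.85 in controls, 6.02 under NF1 RNAi and 6.92 with U0126. Of 7 measured endothelial markers 0 passed under NF1 RNAi in the limma fit (0 at an unadjusted p under 0.05) and 6 lay below 6. Of 6 perineurial markers 1 passed as higher under NF1 RNAi, Slc2a1 (0.26, adjusted p = 0.0191), and 3 lay below 6 on every array. Of 6 neuron markers 1 passed as higher under NF1 RNAi, Rbfox3 (0.30, adjusted p = 0.0289), and 1 as lower, Tubb3 (-2.30, adjusted p = 0.00145). Of these 6, 5 lay below 6 on every array, Rbfox3 among them (5.2 to 5.72), without a detection call. In RNA from a whole culture, fewer cells of a type and less RNA per cell cannot be told apart.

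**Figure D5:**
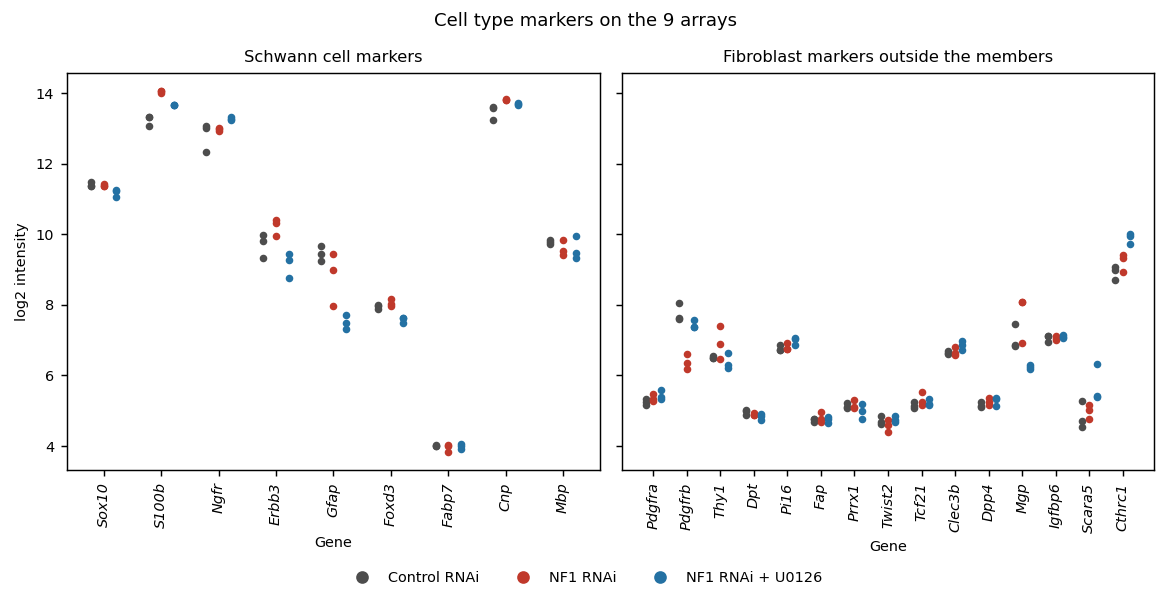
Log2 intensity of the 9 measured Schwann cell markers and of the 15 measured fibroblast markers outside the members, 1 point per array, coloured by group. Sox10, S100b, Ngfr and Cnp lie above 11 on every array, while Pdgfra, Dpt, Fap, Prrx1, Twist2, Tcf21 and Dpp4 lie below 6 on every array. The lists overlap in level. Among the Schwann cell markers Fabp7 lies at 3.84 to 4.05, Foxd3 at 7.49 to 8.17 and Gfap at 7.31 to 9.68. Among the fibroblast markers Cthrc1 lies at 8.7 to 10.01, Pdgfrb at 6.17 to 8.05 and Mgp at 6.18 to 8.09.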

How the data were processed

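Total RNA of 9 Schwann cell cultures was measured on 1-colour Affymetrix arrays, and the authors deposited 1 linear intensity per probe set and array, made with RMA per the submitters' processing notes; which software version and which grouping of probes were used is not stated in the labels read here. RMA already corrects background and quantile normalizes, and compresses differences at low intensity. Of 31099 probe sets, 57 controls were left out. Of the 31042 others, 20826 had 1 gene in the platform annotation, 436 several and 9780 none; symbols were updated through the RefSeq gene table (assembly GRCr8), which named 20758 by gene ID, 2 by accession and 9 by synonym, with 57 array symbols kept. For 4526 genes with more than 1 probe set, the one with the highest mean was used.

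limma 3.58.1 (R 4.3.3) fitted log2(intensity + 1) with a mean per group over all 9 arrays (6 residual degrees of freedom) and no low-value filter. Benjamini-Hochberg adjustment was over 14213 genes at 0.05. The procedure was tested on simulated arrays with independent noise. That test does not cover deviations shared by arrays of the same replicate number. Fold changes are on that scale, and the number of arrays limits their precision. Arrays of the same replicate number correlated in their deviations from the group means in all 9 pairs (r from 0.17 to 0.62, against -0.52 to 0.40 for 18 pairs of different numbers); the design text does not say what a number shares, and the replicate block is given on this basis. Alternatives were the replicate block, a filter, other normalizations, probe set means, array weights, stricter thresholds and left-out arrays. The members and lists were chosen with earlier results of these data known, so list counts stand beside those of all genes, with no test. Named were all members, those passing in at least 1 comparison with every array, and at most 5 other matrix genes per direction. Lists of Schwann cell, fibroblast, mural, macrophage, endothelial, perineurial and neuron markers were read.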

Additional observations from a re-analysis of the deposited data

How the results depend on the processing

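With the replicate block the counts of passing members rose from 14 to 23 in NF1 RNAi against Control RNAi, from 8 to 17 on adding U0126 and from 17 to 26 with U0126 against controls; no member's call was lost, and each call gained is named in the report; the block changed no other call of a member. At an adjusted p under 0.01 the first and second counts were 4 and 3. Requiring at least a 2-fold change the 3 counts were 7, 4 and 11, against 3.69%, 1.98% and 6.15% of all genes. On adding U0126, array weights gave 14 (their iteration ended with a convergence warning). Leaving out the 3 arrays numbered 1 gave 15, against 18.4% of all genes. Leaving out 1 array at a time, the counts ranged from 8 to 16, from 3 to 12 and from 16 to 19. The share of all genes was not taken at an adjusted p under 0.01 or with array weights. Nor was it taken for single left-out arrays other than Control RNAi replicate 1. Those counts cannot be told from a shift of all genes. The filter, median centring, quantile normalization, no pseudocount, a fit of only the 2 groups compared, robust eBayes with an intensity trend, and the mean of all probe sets kept each count within 1.5 times. No named member that passed in any comparison reversed its sign where called. The cause of the moved counts was not tested, except that stricter thresholds admit fewer genes. Signal over background per array was not given, so members that read low have no detection call.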

Other observations

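Among the other matrix genes, the largest falls that passed in NF1 RNAi + U0126 against Control RNAi were those of P4ha3 (-2.92 ± 0.40 on the log2 scale, adjusted p = 0.000531), Ltbp4 (-2.21 ± 0.15, adjusted p = 1.53e-05), Col14a1, a fibril-associated collagen related to Col12a1 (-2.04 ± 0.69, adjusted p = 0.0461), Loxl2, a lysyl oxidase that acts on type IV collagen (-1.92 ± 0.57, adjusted p = 0.0272), and Mfap2 (-1.54 ± 0.10, adjusted p = 1.03e-05). The largest rises that passed were those of Smoc2, a SPARC-related protein (1.5 ± 0.29, adjusted p = 0.00381), Col7a1, the anchoring fibril collagen (1.16 ± 0.28, adjusted p = 0.0113), Col8a2 (1.02 ± 0.30, adjusted p = 0.0247), Col11a2 (0.43 ± 0.09, adjusted p = 0.00556) and Col9a3 (0.42 ± 0.12, adjusted p = 0.0213). For Smoc2, Col7a1 and Col8a2, Control RNAi replicate 1 was the lowest control (5.39, 10.04 and 8.52), which enlarges these rises. All 10 calls also held with the replicate block, in the limma fit with Benjamini-Hochberg adjustment. They belong to a comparison in which 35.5% of all genes passed.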
